A study of Mus musculus with 18 samples.

Results

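De novo lipogenesis, the making of fatty acids from acetyl-CoA, was described here through 10 genes chosen by symbol from the 21441 genes listed in each of 2 expression tables, 1 for mouse liver and 1 for RAW264.7 cells, an established mouse macrophage line. The genes were Srebf1 and Mlxipl, which encode the transcription factors SREBP-1 and ChREBP, Acly and Me1, which supply acetyl-CoA and NADPH, Acaca, Acacb and Fasn, which build the fatty acid, Elovl6 and Scd1, which lengthen and desaturate it, and Thrsp, a lipogenic accessory protein. All 10 symbols were present in both tables, and 9 in liver and 7 in macrophages had a mean FPKM (fragments per kilobase of transcript, scaled to library size) above 1, the limit used for testing. Liver RNA came from male C57BL/6 wild-type mice. Control mice received the 10% DMSO vehicle and saline, LPS mice received 10 mg/kg lipopolysaccharide (LPS), a bacterial cell wall component, by intraperitoneal injection, and LPS+MIC-1 mice were gavaged with 80 mg/kg moringa isothiocyanate-1 (MIC-1) for 3 days before the same LPS dose. Livers were collected 16 h after the injection. In culture, RAW264.7 cells received solvent as the control, LPS, or LPS with 10 uM MIC-1. The sample labels repeat the mouse strain and doses for the cultures. Each of the 6 groups held 3 libraries, with 9 libraries per table. RAW264.7 is a transformed line, and whether its 3 libraries per group came from separate cultures is not given, so p-values there measure only the spread between libraries.

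In the liver this pathway turns surplus carbohydrate into fatty acids. Citrate exported from mitochondria is split to acetyl-CoA, acetyl-CoA carboxylase makes malonyl-CoA, and fatty acid synthase joins these units into palmitate with NADPH as the reductant. Insulin acts mainly through SREBP-1 and sugar metabolites through ChREBP, and both factors act on promoters of the enzyme genes.

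The bases before RefSeq start sites of these genes are shown first, because 8 of the genes were lower with LPS in liver and a reader may want to compare the stretches. RefSeq start sites with 250 bases before and 50 after were found for 9 of the 10 genes, 13 start sites in all, and each 300-base window matched mm9 (NCBIM37) at 1 place. Scd1 had no entry. The 150 bases before the start are printed for 5 genes, 5′ to 3′ on the gene's strand, with CCAAT boxes (CCAAT or, on the other strand, ATTGG) and GC boxes (GGGCGG or CCGCCC) in capitals.
Fasn, chr11:120685862-120686011, minus strand: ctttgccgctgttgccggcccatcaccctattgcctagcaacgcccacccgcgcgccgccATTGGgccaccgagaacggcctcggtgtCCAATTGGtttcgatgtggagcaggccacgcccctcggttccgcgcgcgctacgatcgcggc
Thrsp, chr7:104566061-104566210, minus strand: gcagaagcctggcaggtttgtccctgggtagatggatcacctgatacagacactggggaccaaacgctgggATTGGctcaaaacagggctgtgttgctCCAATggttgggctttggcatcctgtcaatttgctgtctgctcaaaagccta
Acly, chr11:100389315-100389464, minus strand: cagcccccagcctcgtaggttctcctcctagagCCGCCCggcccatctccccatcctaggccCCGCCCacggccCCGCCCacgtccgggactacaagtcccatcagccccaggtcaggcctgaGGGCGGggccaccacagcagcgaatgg
Acacb, chr5:114615377-114615526, plus strand: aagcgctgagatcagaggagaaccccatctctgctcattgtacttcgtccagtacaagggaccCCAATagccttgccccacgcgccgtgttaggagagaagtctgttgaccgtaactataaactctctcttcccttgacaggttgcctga
Elovl6, chr3:129235154-129235303, plus strand: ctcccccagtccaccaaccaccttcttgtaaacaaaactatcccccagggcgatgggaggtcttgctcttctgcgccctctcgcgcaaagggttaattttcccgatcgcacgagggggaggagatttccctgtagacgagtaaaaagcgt
The Fasn stretch held CCAAT boxes starting at -90, -62 and -59 from the start site, the last pair overlapping, and the Thrsp stretch held them at -79 and -52. Acly had 4 GC boxes and Elovl6 had neither motif in its whole window. The Acacb start used lies well inside the gene's annotated span, so that stretch precedes an internal start and not the gene's first base. The Thrsp stretch also lies wholly inside its annotated span, close to the gene's first base. The Fasn start used lies outside its annotated span, before the gene's first base.

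Over the whole 300-base windows and both strands, a CCAAT box was found in 8 of the 13 lipogenic promoters, belonging to 7 of the 9 genes, and in 37.4% of 32851 mouse promoters. GC boxes were found in 5 of 13 promoters and in 35.7% of all promoters. The E-box CACGTG, read by bHLH factors such as ChREBP and SREBP-1, was found in 1 of 13 promoters against 7.15% of all, at 1 of the Mlxipl start sites. The sterol response element core TCACNCCAC was also found in 1 of 13, at the other Mlxipl start site, against 1.24% of all. These counts describe letters in a short window and say nothing on whether a factor was bound. More distal elements lie outside it.

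The libraries were compared before the results. In liver, control library 1 differed from control libraries 2 and 3 by a median of 0.43 and 0.48 on the log2(FPKM + 0.5) scale, while libraries 2 and 3 differed by 0.20. LPS library 2 and LPS+MIC-1 library 2 likewise stood off from the other two of their groups, by 0.53 to 0.55 and by 0.35. Albumin, a hepatocyte marker, was 35991 FPKM in control library 1 and 16299 to 18358 FPKM in the other controls. Summed FPKM was 590303 to 758661 in control, 783886 to 887241 in LPS and 1.0009e+06 to 1.06378e+06 in LPS+MIC-1 livers. In macrophages, LPS library 2 stood at the control level. It differed from control library 2 by a median of 0.07 and from the other LPS libraries by 0.69 to 0.70, and its summed level of 9 LPS response genes was 258 FPKM, against 145 to 248 FPKM in controls and 26838 to 27575 FPKM in LPS libraries 1 and 3. Macrophage results are therefore given with all 9 libraries and with the 8 libraries that remain without it. The authors used 2 LPS samples beside 3 control and 3 LPS+MIC-1 samples of macrophages, and did not name which LPS samples. Libraries 1 and 3 lay closer to each other than to library 2 in every macrophage group. Read totals were not analysed here, so no counting interval is given.

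LPS lowered nearly the whole enzyme set in liver. With limma on log2(FPKM + 0.5), 8 of the 9 tested genes fell at an adjusted p below 0.05 and none rose, while 15.5% of the 10147 liver genes tested fell, 19.2% rose and 34.7% changed in either direction. The median Log2FC was -1.70 over the 8 tested genes other than Mlxipl, which passed the filter through 1 control library, and 0.15 over all tested genes. The 8 genes that fell also did not overlap between groups, which held for 20.8% of all tested genes in the lower direction. With 3 libraries per group the exact permutation test cannot go below p = 0.1, and all 8 reached it. In whole-liver RNA, fewer hepatocytes and less RNA per hepatocyte cannot be told apart.

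The regulator genes gave no usable level in liver. Srebf1 (chr11:60012591-60036083) was listed at 0, 0.335 and 0.0410 FPKM in the control livers, at 1.26, 0 and 0.772 FPKM with LPS, and at 1.02, 0.138 and 0 FPKM with LPS+MIC-1, and was below the limit for testing. Mlxipl (chr5:135582761-135614254) was listed at 66.9 FPKM in control library 1 and at 0 in the other controls, with 0 to 0.732 FPKM in the LPS and LPS+MIC-1 livers. Its mean passed the limit through that 1 library. The groups overlapped for both genes, no call was made (Mlxipl adjusted p = 0.443), and the Log2FC of Mlxipl went from -1.69 to 0.66 without control library 1. A 0 in these tables can be a failed transcript estimate.

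Among the suppliers, Acly (chr11:100337667-100389314) encodes ATP citrate lyase, which makes cytosolic acetyl-CoA. It measured 34.4, 28.6 and 34.6 FPKM in control livers, 10.5, 9.99 and 11.9 FPKM with LPS, and 17.0, 9.69 and 17.1 FPKM with LPS+MIC-1. All controls lay above all other livers, and 2 of the 3 LPS+MIC-1 livers lay above all LPS livers. The Log2FC for LPS against control was -1.55 ± 0.24 (SE, adjusted p = 0.00368). Me1 (chr9:86474970-86589947), the cytosolic malic enzyme that yields NADPH, measured 40.3, 42.2 and 45.5 FPKM in controls, 29.3, 13.3 and 30.1 FPKM with LPS, and 32.2, 30.1 and 33.4 FPKM with LPS+MIC-1. All LPS livers lay below all controls, with LPS library 2 far below the other LPS livers. Its Log2FC was -0.89 ± 0.29 (adjusted p = 0.0455), the smallest change among the genes called, and without LPS library 2 it was -0.51. This call was lost in 13 of 21 alternatives, over which the adjusted p ran from 0.0170 to 0.221.

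The acetyl-CoA carboxylases, which commit carbon to fatty acids, fell with Log2FC values nearer to 0 than that of Fasn, a difference between genes that was not tested. Acaca (chr11:83943174-84215153), the cytosolic form, measured 6.71, 9.28 and 10.1 FPKM in controls and 4.14, 4.63 and 4.18 FPKM with LPS. Acacb (chr5:114596544-114700770), the form at mitochondria whose product restrains fatty acid oxidation, measured 8.88, 8.66 and 10.8 FPKM in controls and 4.11, 2.40 and 4.56 FPKM with LPS. Neither overlapped between the groups. The Log2FC was -0.91 ± 0.18 for Acaca (adjusted p = 0.00857) and -1.28 ± 0.25 for Acacb (adjusted p = 0.00735).

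Fasn (chr11:120667254-120685492), the fatty acid synthase whose upstream stretch is printed first above, measured 55.2, 37.5 and 42.0 FPKM in controls and 12.5, 11.2 and 12.3 FPKM with LPS. The LPS livers lay close together and far below the controls. The mean was 3.74-fold lower and the Log2FC -1.84 ± 0.18 (adjusted p = 0.000637), the smallest adjusted p of the 10 genes, and the call held in all 21 alternatives.

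Both modifying enzymes fell. Elovl6 (chr3:129235304-129341413), the elongase that turns palmitate into stearate, measured 16.0, 20.6 and 21.1 FPKM in controls and 3.39, 5.0 and 2.97 FPKM with LPS, with a Log2FC of -2.22 ± 0.28 (adjusted p = 0.00176). Scd1 (chr19:44468941-44482199), the stearoyl-CoA desaturase that makes oleate, measured 802, 1332 and 1637 FPKM in controls and 213, 93.3 and 196 FPKM with LPS. It had the highest level of the set in every liver group, and its mean was 7.51-fold lower with LPS (Log2FC -2.93 ± 0.43, adjusted p = 0.00316). The controls spread widely but none came near the LPS livers. Scd1 has close paralogs, and the transcript estimates may have divided shared reads between them. In control livers Scd2, Scd3 and Scd4 stood at 1.1 ± 0.19, 1.0 ± 0.10 and 0.392 ± 0.027 FPKM (SD, n = 3).

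The largest change was that of Thrsp (chr7:104561448-104566240), whose product binds and activates lipogenic enzymes and which responds to thyroid hormone and carbohydrate. It measured 374, 275 and 316 FPKM in controls, 37.2, 12.2 and 45.2 FPKM with LPS, and 20.9, 20.1 and 20.2 FPKM with LPS+MIC-1. The mean was 10.2-fold lower with LPS, with a Log2FC of -3.52 ± 0.43 (adjusted p = 0.00158). The LPS livers differed among themselves far more than the LPS+MIC-1 livers, whose 3 values were nearly equal. Fasn and Thrsp kept their calls in all 21 alternatives, and Acly, Acacb, Elovl6 and Scd1 each lost theirs in 1 of 21, when the closest 2 libraries of each group were averaged into 1, an alternative under which 2 of the genes were called. Acaca lost its call in 3 of 21.

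**Figure D1:**
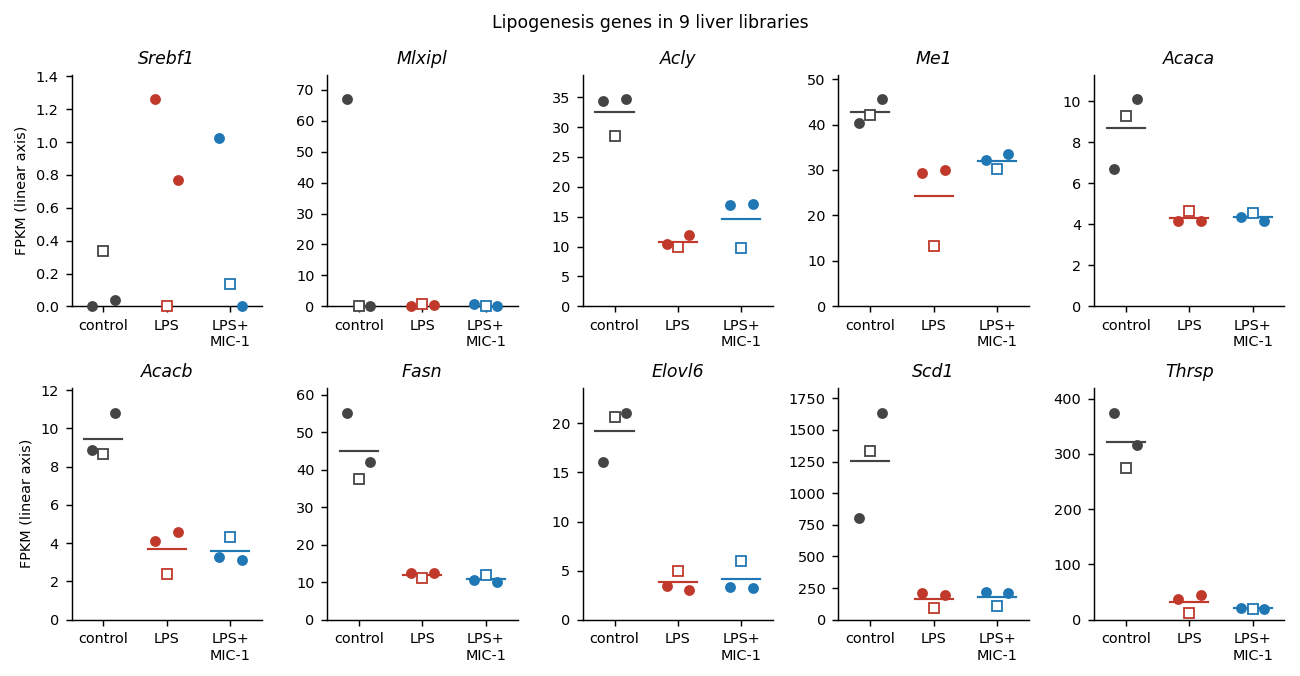
FPKM of the 10 lipogenesis genes in each of 9 liver libraries, on a linear axis that starts at 0 in every panel. Points are libraries, the open square is library 2 of each group, and a line marks the mean where no library was listed at 0. The controls lie above all LPS and LPS+MIC-1 livers for 8 genes, with Thrsp going from 275 to 374 FPKM down to 12.2 to 45.2 FPKM with LPS, while Srebf1 and Mlxipl are at or near 0 in most libraries.

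In level per length, the order in control livers was Scd1, Thrsp, Fasn, Me1, Acly, then Elovl6, Acacb and Acaca, leaving out Mlxipl and Srebf1 for their zeros. Scd1 at 1257 ± 423 FPKM and Thrsp at 322 ± 49.98 FPKM (SD, n = 3) did not overlap with each other or with the rest. Fasn at 44.9 ± 9.20 FPKM overlapped with Me1 at 42.7 ± 2.65 FPKM, and Acacb at 9.45 ± 1.19 FPKM overlapped with Acaca at 8.69 ± 1.77 FPKM, so neither pair could be ordered. With LPS the order was Scd1, Thrsp, Me1, Fasn, Acly, Acaca, Elovl6 and Acacb. Thrsp then overlapped with Me1 and with Fasn, Fasn with Acly, and Acaca, Elovl6 and Acacb with one another.

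No difference between LPS+MIC-1 and LPS livers was called. None of the 9 tested genes, and 0 of the 10147 genes of the liver table (0% called), passed limma's adjusted p of 0.05 in LPS+MIC-1 against LPS, although 364 genes had an unadjusted p below 0.05 and the smallest adjusted p was 0.0546. The Log2FC of the lipogenic genes ran from -0.42 to 0.48, with a median of 0.06 without Mlxipl against -0.01 over all genes. Thrsp was at -0.42 ± 0.43 and Fasn at -0.14 ± 0.18, while Acly stood at 0.38 ± 0.24 and Me1 at 0.48 ± 0.29 (SE). Me1 was the only one whose groups did not overlap, and the lowest LPS+MIC-1 liver and the highest LPS liver both came to 30.1 FPKM. Over all genes, 5.1% were higher without overlap. By library, LPS+MIC-1 livers measured 10.5, 11.9 and 10.1 FPKM for Fasn and 218, 108 and 208 FPKM for Scd1. Elovl6 measured 3.32, 6.01 and 3.19 FPKM, Acaca 4.36, 4.54 and 4.18 FPKM, and Acacb 3.29, 4.31 and 3.10 FPKM. Each of these sets overlapped with its LPS livers. A p above the threshold does not show that the groups were alike, and differences of the size of these SEs could not be resolved with 3 libraries.

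The LPS+MIC-1 livers were accordingly compared with the same controls. Here 7 of the 9 tested genes fell, against 16.3% of all genes lower, 20.1% higher and 36.4% called in either direction. Both comparisons share the 3 control livers, so their values are given side by side and not as separate support. The Log2FC was -3.93 ± 0.43 for Thrsp (adjusted p = 0.000974), -2.82 ± 0.43 for Scd1 (adjusted p = 0.00307), -2.12 ± 0.28 for Elovl6 (adjusted p = 0.00192) and -1.98 ± 0.18 for Fasn (adjusted p = 0.000501). Acacb at -1.30 ± 0.25, Acly at -1.17 ± 0.24 and Acaca at -0.90 ± 0.18 were also called. Me1 was not called at -0.41 ± 0.29 (adjusted p = 0.291), although all 3 of its values lay below all controls, as did those of the 7 genes called and of 24.1% of all genes. Me1 was called in 2 of 21 alternatives, over which the adjusted p ran from 0.0265 to 0.568.

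**Figure D2:**
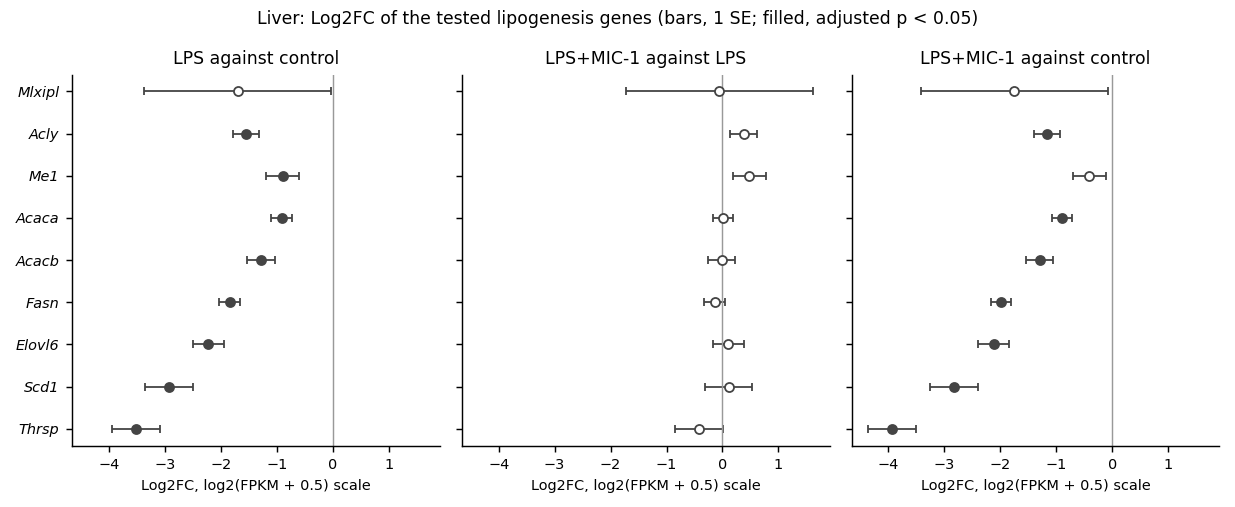
Log2FC of the 9 tested lipogenesis genes in liver on the log2(FPKM + 0.5) scale, in 1 panel per comparison; bars are 1 SE from the limma fit of 9 libraries and filled points passed an adjusted p of 0.05. The 8 filled points for LPS against control run from -3.52 for Thrsp to -0.89 for Me1, no point is filled for LPS+MIC-1 against LPS, and Mlxipl has an SE of 1.67.

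Scaling did not turn these directions. When FPKM values were rescaled to the same sum in each liver library, the middle Log2FC over the whole table went from 0.15 to -0.18 for LPS against control and from 0.15 to -0.43 for LPS+MIC-1 against control, and the share of calls that were higher moved from 55.3% to 31.2% and from 55.2% to 17.6%. The lipogenic genes called in LPS against control numbered 8 under that scaling too. For LPS+MIC-1 against LPS, where nothing was called, the signs of Acaca, Elovl6 and Scd1 turned under it.

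Markers of other cells moved with LPS in the same livers. The summed level of 5 neutrophil genes was 2.58 to 9.13 FPKM in controls, 309 to 389 FPKM with LPS and 174 to 427 FPKM with LPS+MIC-1. The summed level of 4 endothelial genes was 33.3 to 36.5 FPKM in controls, 7.53 to 17.6 FPKM with LPS and 8.81 to 26.4 FPKM with LPS+MIC-1. In controls most of this sum was Clec4g, which fell with Kdr in LPS against control, while Pecam1 was called higher from controls of which 2 were listed at 0. The 5 hepatocyte genes summed to 39936 to 78712 FPKM, 33709 to 44918 FPKM and 34065 to 43240 FPKM in the same order, none of the 5 was called in LPS against control, and none was at 0. The 7 Kupffer cell or macrophage genes summed to 44.2 to 81.6, 83.6 to 92.2 and 73.3 to 159 FPKM, with Clec4f and Vsig4 lower and Marco higher in LPS against control. The 4 lymphocyte genes summed to 3.41 to 4.73, 2.03 to 3.80 and 2.5 to 4.07 FPKM, and the 4 pancreas genes to 8.67 to 14.4, 3.87 to 9.93 and 7.53 to 9.63 FPKM. The part of these shifts in the lipogenic result was not tested. Fat tissue also makes lipogenic enzymes, and its defining genes Adipoq, Lep and Retn were listed at 0 in all 9 liver libraries, with no more than 0.187 FPKM summed over 6 adipocyte genes in any of them.

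Genes beside the core pathway were split in direction, and the counts below stand against 15.5% of all genes lower and 19.2% higher. Of the 10 genes that supply carbon and NADPH, 9 were tested, 4 fell and 2 rose with LPS in liver. Acss2, which makes acetyl-CoA from acetate, fell from 88.2 ± 19.0 to 7.64 ± 3.73 FPKM (SD, n = 3; Log2FC -3.52 ± 0.40, adjusted p = 0.00119), and Aacs, the acetoacetyl-CoA synthetase that feeds ketone bodies into lipid synthesis, fell from 26.1 ± 4.13 to 3.44 ± 0.60 FPKM (Log2FC -2.75 ± 0.19, adjusted p = 0.000239). Pklr, the liver pyruvate kinase and a well-known ChREBP target, had a Log2FC of -1.39 ± 0.30. Pcx, pyruvate carboxylase, rose with a Log2FC of 1.14 ± 0.27 and G6pdx, the first enzyme of the pentose phosphate pathway, with 0.85 ± 0.18. The median Log2FC of the list was -0.26.

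Of 14 genes for other elongation and desaturation steps, 12 were in the table and 10 tested, of which 3 fell and 1 rose. Elovl3, an elongase of saturated chains, fell from 130 ± 49.2 to 32.8 ± 0.944 FPKM (Log2FC -1.91 ± 0.50, adjusted p = 0.0214). Elovl5, which elongates polyunsaturated chains, fell with a Log2FC of -1.5 ± 0.17, and Tecr, the reductase of the last elongation step, with -1.34 ± 0.25. Hsd17b12, the reductase of an earlier step in the same cycle, rose with 1.30 ± 0.40, although control library 1 at 38.6 FPKM overlapped with LPS library 2 at 38.2 FPKM, and the call was lost in 11 of 21 alternatives. The median over the list was -0.48.

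Glycerolipid synthesis joins fatty acids into triglyceride and phospholipid. Of its 12 genes 10 were tested, 2 fell, 1 rose, and the Log2FC ran from -1.42 to 0.67 with a median of 0.19, so the called share was close to the 34.7% over all genes. Pnpla3, a lipid droplet hydrolase and known SREBP-1 target, measured 2.26 ± 0.26 FPKM in controls and 0.535 ± 0.15 FPKM with LPS (Log2FC -1.42 ± 0.27, adjusted p = 0.00692). Its mean over the 9 livers was 1.02 FPKM. It passed the filter only through the controls, so its call, counted among the 2, carries no weight. Lpin2, a phosphatidate phosphatase, fell with -1.33 ± 0.27. Agpat3, an acyltransferase, rose with 0.59 ± 0.16, a call lost in 9 of 21 alternatives.

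Among 24 regulators of the pathway 21 were tested, with 3 lower and 2 higher, which is no more than the shares over all genes, and a median Log2FC of 0.04. Ppargc1b, a coactivator of SREBP-1, fell from 10.0 ± 2.84 to 1.28 ± 0.85 FPKM (Log2FC -2.64 ± 0.37, adjusted p = 0.00279). Insig1 and Insig2, which hold the SREBP precursors in the endoplasmic reticulum, went in opposite directions. Insig1, itself an SREBP target, fell from 157 ± 30.3 to 33.7 ± 12.2 FPKM (Log2FC -2.25 ± 0.29, adjusted p = 0.00193), and Insig2 rose from 14.7 ± 10.7 to 91.7 ± 53.6 FPKM (Log2FC 2.79 ± 0.82, adjusted p = 0.0308). Scap, which escorts SREBP to the Golgi, fell with a Log2FC of -0.65 ± 0.19, and Mlycd, malonyl-CoA decarboxylase, rose with 1.98 ± 0.65. The Insig2 call was lost in 7 of 21 alternatives, that of Scap in 10 and that of Mlycd in 11. No gene of the 4 lists was called between LPS+MIC-1 and LPS in liver. Against control, LPS+MIC-1 lowered 3, 2, 3 and 2 and raised 1, 1, 1 and 2 of the 9, 10, 10 and 21 genes tested. These are the supply, elongation, glycerolipid and regulator lists in that order. Over all genes 16.3% were lower and 20.1% higher in this comparison, and the regulator counts are no more than these shares. Among the genes called were Acss2 at -2.70 ± 0.40, Insig1 at -1.66 ± 0.29 and Insig2 at 2.81 ± 0.82. The other regulator counted as higher was Prkaa1, a catalytic subunit of AMP-activated kinase, which was listed at 0 in all controls and passed the filter only through the other groups, so its call carries no weight. The same holds for Pnpla3, counted as lower in the glycerolipid list, which passed the filter only through the controls.

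**Figure D3:**
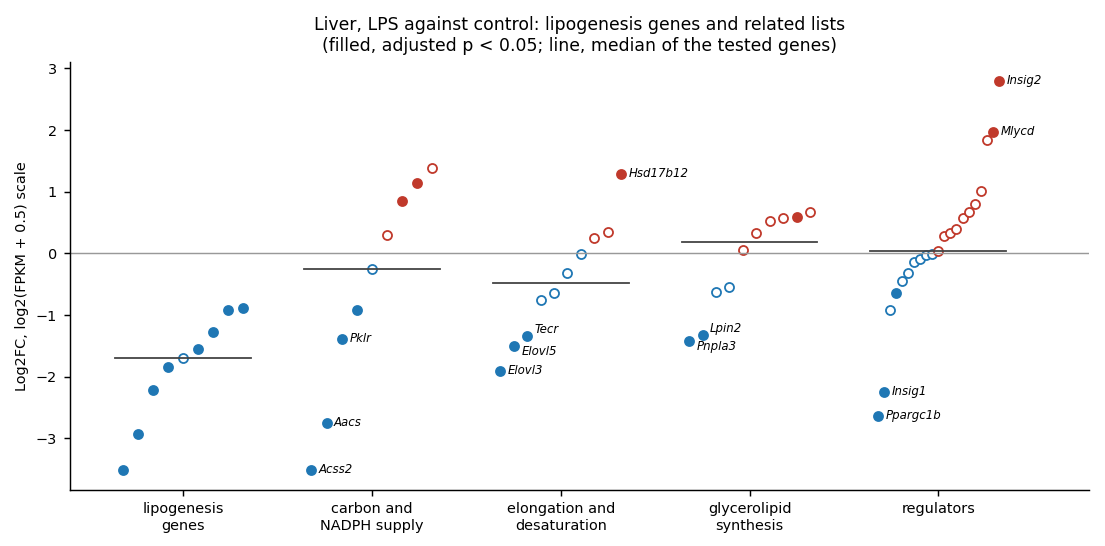
Log2FC of LPS against control in liver for the tested lipogenesis genes and for 4 lists of related genes, on the log2(FPKM + 0.5) scale. Points are genes, blue below and red above 0, filled at an adjusted p below 0.05, and the line is the median of the tested genes. The 8 filled lipogenesis points lie between -3.52 and -0.89, the open one at -1.69, on the median line, is Mlxipl with its single high control, and the other lists have medians from -0.48 to 0.19.

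The tested liver genes outside these lists with the profile most like that of Fasn were found from the root mean square (RMS) difference of centred log2(FPKM + 0.5) values over the 9 libraries. They were Lifr (RMS 0.19), a cytokine receptor gene, Cml1 (0.21), Igfbp5 (0.23), Bard1 (0.24) and Acsl1 (0.24), which activates long-chain fatty acids. Acsl1 averaged 183 FPKM in control, 55.8 FPKM with LPS and 52.4 FPKM with LPS+MIC-1. Among the lipogenic genes Elovl6 and Acacb were nearest to Fasn, both at 0.38, and ranked at positions 140 and 141 of 10147 genes. Scd1 was at 0.73 and Thrsp at 0.97.

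RAW264.7 cells used a smaller set. Acacb stood at 0.0432 to 0.185 FPKM, Thrsp was above 0 in 2 of 9 libraries and reached 0.0940 FPKM, and Mlxipl was listed at 0 in all 9, so these were not tested. The 7 Kupffer cell or macrophage genes summed to 9087 to 11152 FPKM, of which Lyz2 made up 8726 to 10746 FPKM. Csf1r at 108 to 423 FPKM and Emr1 at 37.2 to 290 FPKM were also present, while Clec4f, Vsig4 and Marco, markers of tissue macrophages, were listed at 0 in 8, 7 and 7 of 9 libraries, and 5 hepatocyte genes summed to 2.51 to 12.6 FPKM. Of the 6 adipocyte genes, Adipoq, Lep and Cfd were listed at 0 in all 9 libraries, Retn was above 0 in 5, and the 6 summed to at most 0.305 FPKM. The 4 endothelial genes summed to at most 0.331 FPKM, the 4 lymphocyte genes to at most 0.285 FPKM and the 4 pancreas genes to at most 6.82 FPKM. The 5 genes listed as neutrophil markers summed to 1.55 to 2.5 FPKM in controls, 3.89 to 39.8 FPKM with LPS and 653 to 720 FPKM with LPS+MIC-1 in this cell line. Only 1 of the 5 passed the limit for testing, so this sum does not describe the set. Retnlg, Mpo, S100a9 and Camp were listed at 0 in 8, 5, 4 and 1 of 9 libraries.

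In control macrophages the order of levels was Acly, Fasn, Scd1, Me1, Srebf1, Acaca and Elovl6. Acly at 58.9 ± 10.6 FPKM lay above the rest, Fasn at 35.7 ± 6.02 FPKM overlapped with Scd1 at 33.9 ± 10.3 FPKM, and Srebf1 at 10.3 ± 2.15 FPKM overlapped with Acaca at 9.64 ± 1.498 FPKM (SD, n = 3). The liver and macrophage tables were normalised separately, so levels were not compared between them.

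With all 9 macrophage libraries, LPS against control gave 0 calls among the 7 tested genes and 0 of 9905 genes in all (0% called), while 4928 genes had an unadjusted p below 0.05 and the smallest adjusted p by limma was 0.0777. Without LPS library 2 the calls numbered 7445, or 75.2% of genes, 38.2% of them lower and 36.9% higher as shares of all tested. In that fit 6 of the 7 lipogenic genes fell and none rose. With 3 against 2 libraries the smallest exact p is 0.1.

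Fasn measured 39.1, 28.7 and 39.2 FPKM in control macrophages, 8.27, 27.6 and 8.13 FPKM with LPS, and 12.9, 25.9 and 13.3 FPKM with LPS+MIC-1. Library 2 of LPS lay just below the lowest control. The Log2FC was -1.48 ± 0.47 with 9 libraries (adjusted p = 0.0777) and -2.04 ± 0.29 with 8 (adjusted p = 0.000368). Scd1 measured 40.0, 22.0 and 39.8 FPKM in control, 6.08, 22.5 and 5.34 FPKM with LPS, and 8.43, 12.9 and 9.04 FPKM with LPS+MIC-1. LPS library 2 thus overlapped with the controls, and the Log2FC went from -1.79 ± 0.51 (adjusted p = 0.0777) to -2.42 ± 0.28 without it (adjusted p = 0.000119). Scd2, the paralog that prevails in these cells, averaged 160 ± 47.7 FPKM in control. How reads were shared between Scd1 and Scd2 was not tested.

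Elovl6 measured 7.22, 4.50 and 7.61 FPKM in control and 1.31, 4.44 and 1.19 FPKM with LPS. Its Log2FC was -1.46 ± 0.41 with 9 and -1.96 ± 0.22 with 8 libraries (adjusted p = 0.000104). Acly measured 65.3, 46.7 and 64.7 FPKM in control and 33.3, 45.4 and 34.7 FPKM with LPS, and its Log2FC was -0.63 ± 0.17 and -0.77 ± 0.15 (adjusted p = 0.0777 and 0.0018). Acaca measured 10.3, 7.93 and 10.7 FPKM in control and 6.18, 8.24 and 5.54 FPKM with LPS, with -0.51 ± 0.19 and -0.66 ± 0.15 (adjusted p = 0.0777 and 0.00413). After equal-sum scaling the Log2FC of Acly was -1.30 with 9 libraries and -1.75 with 8, and that of Acaca -1.14 and -1.58. For each of these genes the control library 2 was the lowest control and LPS library 2 the highest LPS library.

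Srebf1, whose level could be tested in these cells, measured 12.5, 10.3 and 8.21 FPKM in control, 4.44, 9.22 and 4.199 FPKM with LPS, and 12.1, 7.92 and 8.66 FPKM with LPS+MIC-1. LPS libraries 1 and 3 lay below all other libraries of the 3 groups. The Log2FC for LPS against control was -0.81 ± 0.31 with 9 libraries (adjusted p = 0.0799) and -1.15 ± 0.21 with 8 (adjusted p = 0.00138). Me1 went apart from the rest, with 14.4, 13.03 and 14.5 FPKM in control, 17.4, 12.8 and 16.4 FPKM with LPS, and 23.0, 30.8 and 22.6 FPKM with LPS+MIC-1. Its Log2FC for LPS was 0.14 ± 0.17 and 0.27 ± 0.14 (adjusted p = 0.501 and 0.109), and rescaling to the same sum turned its sign to -0.52.

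**Figure D4:**
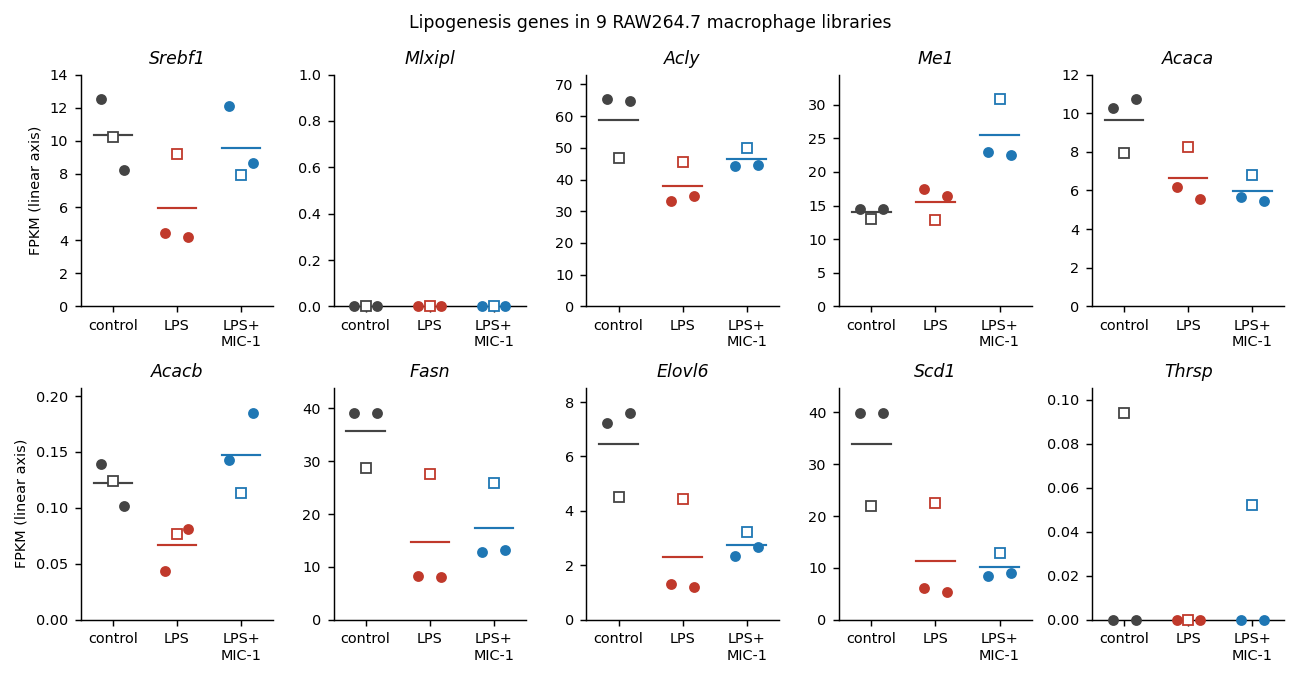
FPKM of the 10 lipogenesis genes in each of 9 RAW264.7 libraries, on a linear axis that starts at 0 in every panel; points are libraries, the open square is library 2 of each group, and a line marks the mean where no library was listed at 0. The open LPS square lies at the control level for Fasn at 27.6 FPKM and Scd1 at 22.5 FPKM, while the filled LPS points lie at 8.13 to 8.27 and 5.34 to 6.08 FPKM, and Me1 is highest with LPS+MIC-1.

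In macrophages Me1 was higher with LPS+MIC-1, at 25.5 ± 4.62 FPKM, than with LPS, at 15.6 ± 2.42 FPKM (SD, n = 3). The LPS mean includes library 2, which stood at the control level, at 12.8 FPKM. LPS libraries 1 and 3 averaged 16.9 FPKM. The Log2FC was 0.69 ± 0.17 with 9 libraries (adjusted p = 0.0249) and 0.56 ± 0.14 with 8 (adjusted p = 0.00739), the groups did not overlap, as for 17.9% of all genes in the higher direction, and the call was lost in 9 of 22 alternatives, over which the adjusted p ran from 6.37e-05 to 0.293. Me1 was the 1 gene of 7 called with 9 libraries, where 21.6% of all genes were called, 10.2% higher and 11.4% lower. With 8 libraries 6 of 7 were higher, where 68% of all genes were called, 34% higher and 34.1% lower. These were Srebf1 at 1.04 ± 0.21 (adjusted p = 0.00294), Fasn at 0.96 ± 0.29 (adjusted p = 0.0197), Elovl6 at 0.88 ± 0.22 (adjusted p = 0.0086), Scd1 at 0.75 ± 0.28 (adjusted p = 0.0441), Me1, and Acly at 0.44 ± 0.15 (adjusted p = 0.0289). With 9 libraries the same 5 genes beside Me1 ran from 0.12 for Scd1 to 0.70 for Srebf1, and none was called. Acaca stood at -0.13 ± 0.19 and 0.02 ± 0.15 and was not called in either.

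Relative to control, LPS+MIC-1 macrophages had higher Me1 (Log2FC 0.83 ± 0.17, adjusted p = 0.011) and lower Acaca (-0.64 ± 0.19, adjusted p = 0.0386) and Scd1 (-1.67 ± 0.51, adjusted p = 0.0465) with 9 libraries, where 24.8% of all genes were called, 11.8% higher and 13% lower. Scd1 and Acaca lost these calls in 10 and 11 of 22 alternatives. In that fit LPS library 2 enters this comparison only through the shared estimate of spread. With 8 libraries, which leave it out, Fasn at -1.08 ± 0.26 (adjusted p = 0.00827) and Elovl6 at -1.07 ± 0.20 (adjusted p = 0.00232) were called lower as well. There 60.3% of all genes were called, 28.1% higher and 32.2% lower. Srebf1 at -0.11 and Acly at -0.33 were not called in either fit. In LPS+MIC-1 cells Me1 at 25.5 ± 4.62 FPKM stood above Fasn at 17.3 ± 7.40 FPKM and Scd1 at 10.1 ± 2.44 FPKM, whereas it stood below both in controls, and its LPS+MIC-1 values overlapped with those of Fasn but not with those of Scd1.

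Equal-sum scaling moved the macrophage comparisons by over 1.5 times for some genes. It shifted the median Log2FC of all genes from -0.03 to -0.65 for LPS against control and from -0.01 to 0.44 for LPS+MIC-1 against LPS with 9 libraries, and to -0.93 and 0.74 with 8. In the fit of 8 libraries the share of calls that were higher moved from 49.1% to 14.3% and from 49.9% to 86.5%. For LPS against control it took Srebf1 to -2.05, Fasn to -2.99, Elovl6 to -2.72 and Scd1 to -3.35 with 8 libraries, and for LPS+MIC-1 against LPS it took Srebf1 to 1.76, Fasn to 1.72, Scd1 to 1.49, Elovl6 to 1.46, Me1 to 1.34, Acly to 1.23 and Acaca to 0.75. The summed FPKM of LPS libraries 1 and 3 was 1.1329e+06 to 1.13753e+06, against 557136 to 652486 in the controls and the LPS+MIC-1 libraries.

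**Figure D5:**
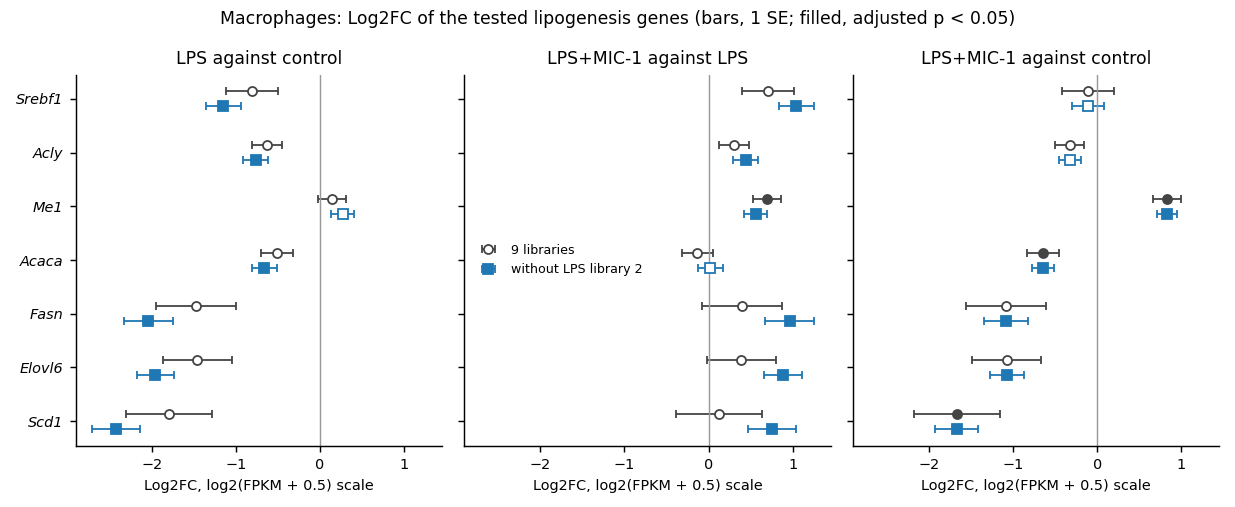
Log2FC of the 7 tested lipogenesis genes in RAW264.7 cells on the log2(FPKM + 0.5) scale, in 1 panel per comparison. Circles are the fit of 9 libraries and squares the fit of 8 without LPS library 2, bars are 1 SE, and filled symbols passed an adjusted p of 0.05. For LPS against control no circle is filled and 6 squares are, from -2.42 for Scd1 to -0.66 for Acaca, and for LPS+MIC-1 against LPS the circle of Me1 alone is filled.

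The related lists were read from the fit of 8 macrophage libraries, with the fit of 9 beside them. For LPS against control the supply list had 5 lower and 2 higher of 7 tested, the elongation and desaturation list 3 lower of 7, the glycerolipid list 3 lower and 2 higher of 8, and the regulators 6 lower and 8 higher of 21, while the fit of 9 called none of them. Over all genes 75.2% were called in the fit of 8, and the shares of the glycerolipid, regulator and elongation lists lay below that. Pgd, an NADPH-yielding enzyme of the pentose phosphate pathway, was at -2.03 ± 0.26, Idh1, which also yields NADPH, at -1.61 ± 0.10, Scd2 at -1.75 ± 0.24 and the desaturase Fads2 at -1.63 ± 0.30. Insig1 was at 1.13 ± 0.33, although its 9-library value of 0.54 turned to -0.13 under equal-sum scaling, and Nr1h3, the LXR-alpha gene, at -1.23 ± 0.39. Rxra and Ppard rose more than Insig1 among the regulators called higher. Slc25a1 and Acss2 were the 2 supply genes called higher, and equal-sum scaling turned the sign of each. For LPS+MIC-1 against LPS the same lists had 4 higher and 2 lower, 1 higher, 2 higher and 2 lower, and 9 higher and 6 lower, and the fit of 9 called 2 higher and 1 lower, none, 1 higher, and 2 higher and 3 lower. In these fits 68% and 21.6% of all genes were called. Among the genes called in both fits were Pgd, at 1.83 ± 0.45 with 9 libraries and 2.37 ± 0.26 with 8, G6pdx, at 1.33 ± 0.18 and 1.49 ± 0.14, and Trib3, a stress-induced pseudokinase, at 1.78 ± 0.12 and 1.81 ± 0.11. Acss2 at -0.72 ± 0.17 and -0.90 ± 0.09 went the other way. The 9-library call was lost in 9 of 22 alternatives for Pgd, 11 for Acss2, and 1 each for G6pdx and Trib3.

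The tested macrophage genes most like Fasn over the 9 libraries were Hn1l (RMS 0.11), Utp20 (0.12) and Nolc1 (0.15), the last pair being ribosome biogenesis genes, with Hnrnpa2b1 (0.15) and Ttc27 (0.15). None of them was among the 5 found in liver. Elovl6 was at 0.20 and ranked at position 21 of 9905 genes, and Scd1 at 0.30 ranked at 194.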

How the data were processed

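Bulk RNA sequencing of mouse liver and RAW264.7 macrophages was used. The deposited FPKM values were made by the authors with kallisto 0.45.0, tximport and DESeq2 1.20.0 on RefSeq transcripts of mm9, with each tissue normalised alone. Tables of the authors' own fold changes and p-values were not used. Read totals were not analysed here, so the depth is unknown.

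Testing was limited to genes averaging more than 1 FPKM in a table's 9 libraries, and used limma 3.58.1 (R 4.3.3; eBayes with trend) on log2(FPKM + 0.5), which understates changes of low genes. All 3 groups entered 1 fit, and calls needed a Benjamini-Hochberg adjusted p below 0.05 over all tested genes. Log2FC, SE and adjusted p come from this fit unless 8 libraries are named. The lipogenesis genes and lists were chosen with earlier results of these data known. Named genes were all 10 lipogenesis genes, up to 3 called genes per direction from each related list with the largest absolute Log2FC, from which a few are shown, and the 5 genes nearest to Fasn. Columns carry no replicate number, so libraries are numbered in column order. Alternatives were pseudocounts of 0.1 and 1, no filter or a filter of 5 FPKM, fits of only 2 groups, eBayes without trend, 2 other scalings (median of ratios and equal sums), stricter or unadjusted thresholds, and leaving out each library. The procedure was tested on simulated data. Gene positions are from the mm9 annotation. Tables and figures were made with Python 3.11.15, pandas 2.3.3, numpy 2.4.6 and matplotlib 3.10.9.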

Additional observations from a re-analysis of the deposited data

Results flagged for a closer look

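For some genes the groups lay apart without overlap in opposite directions in liver and macrophages, whether or not they passed the test. Of 47 lipogenic and related genes tested in both tables this held for 1 in LPS against control, 1 in LPS+MIC-1 against LPS and 4 in LPS+MIC-1 against control, and of all 8172 genes tested in both for 6.23%, 2.88% and 18.8%. The difference itself was not tested, because the tables were normalised separately. For LPS+MIC-1 against control, the Log2FC in liver and macrophages was -0.41 and 0.83 for Me1, 0.59 and -1.04 for Scd2, -0.95 and 0.42 for Agpat1, and -1.23 and 0.90 for Lpin2. For LPS+MIC-1 against LPS it was -0.37 and 1.33 for G6pdx, and for LPS against control it was 0.34 and -0.37 for Mbtps2, a protease gene of SREBP processing. In liver, Me1 and Scd2 in LPS+MIC-1 against control were not called. The same held in liver for G6pdx in LPS+MIC-1 against LPS and for Mbtps2 in LPS against control. With all 9 macrophage libraries no gene was called in LPS against control, so Mbtps2 was not called there either.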

How the results depend on the processing

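No paired analysis was possible because the columns carry no replicate numbers. In liver, the number of lipogenic genes called fell from 8 to 2 for LPS against control and from 7 to 2 for LPS+MIC-1 against control when the closest 2 libraries of each group were averaged, an alternative chosen after seeing the data, like the use of libraries 1 and 3 only and the rescaled fit of 8 libraries. In macrophages, LPS against control went from 0 to 7 calls with libraries 1 and 3 only, 7 with 8 libraries rescaled to the same sum and 3 at an unadjusted p below 0.05 with an absolute Log2FC above 1, and leaving out 1 library gave 0 to 6, the 6 without LPS library 2. LPS+MIC-1 against LPS went from 1 to 0 with only the 2 groups in the fit, with libraries 1 and 3 averaged and under either rule with an absolute Log2FC above 1, to 6 with libraries 1 and 3 only and to 7 with 8 libraries rescaled, and leaving out 1 library gave 0 to 6. LPS+MIC-1 against control went from 3 to 1 without the filter, 5 with only the 2 groups in the fit, 0 after rescaling, with libraries averaged or at an adjusted p below 0.01, and 6 with libraries 1 and 3 only or 8 libraries rescaled, and leaving out 1 library gave 1 to 5. The cause was not tested.

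Over all genes, leaving out 1 library gave 1396 to 4967, 0 to 36 and 2035 to 4585 calls in the 3 liver comparisons, against 3520, 0 and 3692 with all 9. In macrophages it gave 0 to 7445, 733 to 6737 and 890 to 5972, against 0, 2141 and 2456, and the highest counts were those without LPS library 2.

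Signs turned in liver for LPS+MIC-1 against LPS, where nothing was called. Rescaling gave -0.24 for Acaca, -0.15 for Elovl6 and -0.18 for Scd1, averaging the closest 2 libraries gave 0.17 for Acacb, and libraries 1 and 3 only gave 0.57 for Mlxipl. Leaving out 1 library gave -0.013 to 0.059 for Acaca, -0.26 to 0.14 for Acacb, -0.16 to 0.29 for Elovl6, -0.27 to 0.43 for Scd1 and -0.40 to 0.26 for Mlxipl. For Mlxipl it gave -2.87 to 0.66 in LPS and -2.93 to 0.61 in LPS+MIC-1 against control. In macrophages, rescaling with 9 and with 8 libraries gave -0.52 and -0.69 for Me1 in LPS against control, and 0.31 and 0.75 for Acaca in LPS+MIC-1 against LPS. Averaging libraries 1 and 3 gave -0.10 for Scd1. Leaving out 1 library gave -0.25 to 0.020 for Acaca and -0.23 to 0.75 for Scd1, and -0.28 to 0.032 for Srebf1 in LPS+MIC-1 against control, where libraries 1 and 3 only gave 0.012.

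Among related genes, rescaling turned Agpat3 to -0.047 in liver LPS+MIC-1 against control. In macrophages, rescaling with 9 and 8 libraries gave, for LPS against control, -0.41 and -0.52 for Slc25a1, -0.45 and -0.56 for Acss2, -0.036 and -0.16 for Agpat1, -0.0648 and -0.15 for Agpat3, and -0.13 with 9 libraries for Insig1. For LPS+MIC-1 against LPS it gave 0.17 and 0.29 for Slc25a1, 0.25 and 0.34 for Agpat3, and 0.27 and 0.39 for Agpat1.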
